A study of Mus musculus with 6 samples.

Results

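The AP-1 transcription factors followed here are the products of 10 genes: Fos, Fosb, Fosl1 and Fosl2 of the Fos family, Jun, Junb and Jund of the Jun family, Jdp2, Batf and Batf3. They were chosen by gene symbol, as the 15 probe sets that the platform annotation assigns to exactly 1 of these symbols, out of 45037 probe sets and 18193 genes with such an assignment. The brightest probe set over all arrays represented each gene. Of the 10 genes, 8 lay above the filter on dim probe sets, and Fosb and Fosl1 lay below it.

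Expression was measured on 6 Affymetrix arrays of mouse bone marrow macrophages. All cells came from mice of strain c57BL/6 that lack both TNF receptors (TNFR1-/-R2-/-), and all were infected with a retrovirus and selected in puromycin at 2 ug/ml for 3 days. The mutant group (n = 3 arrays) carried a chimeric receptor made of the outer domain of mouse TNFR1 and the membrane and inner domains of mouse RANK, with inactivating mutations in the IVVY motif of RANK. The wild-type group (n = 3 arrays) carried the same chimera with an intact motif. Over 24 hours both groups received TNF (10 ng/ml) and M-CSF (44 ng/ml), so neither is an unstimulated control. Each array held the pooled RNA of 6 dishes, and the 3 replicate numbers stand for 3 independent assays. The age and number of the mice, the promoter that drove the receptor and the receptor's protein level were not stated in the labels. The comparison asked which genes depend on the IVVY motif.

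AP-1 proteins bind DNA as pairs joined by a leucine zipper. Jun proteins pair with each other or with Fos proteins, while Fos proteins need a Jun partner, and the pairs bind the element TGANTCA. RANK signalling is known to induce Fos in macrophages, and mice without Fos form no osteoclasts, the bone-resorbing cells that macrophages become under RANK ligand. Jdp2 pairs with Jun proteins and is known as a repressor at AP-1 sites, yet mice without it form fewer osteoclasts. Batf and Batf3 are small members of the family, best known for their roles in T cells and dendritic cells.

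Values are intensities on a linear scale, normalized between arrays by the submitters. The median of each array lay between 8.86 and 9.38 and the 75th percentile between 160 and 164, so readings of about 9 and below mark the dim end. Precision is limited by the number of arrays. As a check of the labelled cell type, all 9 macrophage markers on the arrays lay above the filter, and they summed to 156844 to 173504 in mutant cells and 161630 to 173293 in wild-type cells. The 10 osteoclast markers summed to 1128 to 1892 in mutant cells, against 8587 to 27452 in wild-type cells. The 10 stromal markers summed to 7622 and 5660 in the mutant and wild-type arrays of assay 3, and to at most 473 on the other arrays. Ighm, an immunoglobulin gene of B cells, read 46.6, 533 and 2035 on mutant arrays 1, 2 and 3, against 8.21, 633 and 1723 on the wild-type arrays of those assays. The other B cell markers on the arrays did not follow Ighm. Cd79a, Cd79b and Pax5 read at most 7.52 on every array, at the dim end, and Ms4a1 read 9.17 to 11.7, near it.

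The 3 genes Fos, Jdp2 and Batf are neighbours on mouse chromosome 12. In RefSeq no other protein-coding gene lies between them, and their start sites are 125.2 kb (Fos to Jdp2) and 87.6 kb (Jdp2 to Batf) apart. The start regions below come from the RefSeq table for build GRCm38.p6, which matched 9 of the 10 genes, all but Fosl1, with 11 windows, 3 of them for Jdp2. Those of Jdp2 and Fosl2 are shown because these are the genes whose readings did not overlap between the groups. Those of Fos and Jun are shown as the founding members of the 2 families. Each window holds 250 bases before and 50 bases after a start, and capitals mark the matches on either strand to TGACNTCA, to the short site TGACG, to TATAAA and to GGGCGG.
Jdp2, first window (chr12:85598855-85599154, plus strand): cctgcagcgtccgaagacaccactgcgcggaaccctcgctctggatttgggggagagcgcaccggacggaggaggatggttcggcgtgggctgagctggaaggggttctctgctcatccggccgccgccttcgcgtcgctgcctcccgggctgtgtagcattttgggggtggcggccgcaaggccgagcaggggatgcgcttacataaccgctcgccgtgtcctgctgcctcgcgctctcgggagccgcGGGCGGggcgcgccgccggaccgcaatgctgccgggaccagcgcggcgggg
Jdp2, second window (chr12:85599166-85599465, plus strand): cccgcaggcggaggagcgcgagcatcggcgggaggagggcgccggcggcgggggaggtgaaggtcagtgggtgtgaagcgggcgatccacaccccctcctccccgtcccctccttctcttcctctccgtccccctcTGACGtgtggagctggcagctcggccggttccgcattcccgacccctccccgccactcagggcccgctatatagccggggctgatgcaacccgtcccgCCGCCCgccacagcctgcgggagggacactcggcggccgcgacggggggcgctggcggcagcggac
Jdp2, last window (chr12:85599768-85600067, plus strand): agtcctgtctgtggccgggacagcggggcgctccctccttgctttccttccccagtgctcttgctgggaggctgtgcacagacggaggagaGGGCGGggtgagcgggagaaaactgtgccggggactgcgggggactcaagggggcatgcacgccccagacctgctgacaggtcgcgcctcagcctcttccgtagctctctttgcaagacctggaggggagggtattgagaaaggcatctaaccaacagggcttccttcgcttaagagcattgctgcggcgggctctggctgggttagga
Fosl2 (chr5:32136222-32136521, plus strand): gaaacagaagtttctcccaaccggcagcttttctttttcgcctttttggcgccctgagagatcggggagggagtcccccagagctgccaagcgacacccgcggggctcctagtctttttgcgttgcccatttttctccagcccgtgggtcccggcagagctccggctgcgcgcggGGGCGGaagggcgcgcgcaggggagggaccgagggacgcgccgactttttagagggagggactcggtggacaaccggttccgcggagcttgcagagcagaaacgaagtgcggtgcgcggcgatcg
Fos (chr12:85473640-85473939, plus strand): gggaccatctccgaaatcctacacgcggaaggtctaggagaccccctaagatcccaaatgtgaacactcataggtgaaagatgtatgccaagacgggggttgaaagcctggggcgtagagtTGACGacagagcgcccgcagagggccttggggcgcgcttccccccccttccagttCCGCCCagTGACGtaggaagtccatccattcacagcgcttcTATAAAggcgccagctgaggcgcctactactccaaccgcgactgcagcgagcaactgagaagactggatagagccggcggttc
Jun (chr4:95052173-95052472, minus strand): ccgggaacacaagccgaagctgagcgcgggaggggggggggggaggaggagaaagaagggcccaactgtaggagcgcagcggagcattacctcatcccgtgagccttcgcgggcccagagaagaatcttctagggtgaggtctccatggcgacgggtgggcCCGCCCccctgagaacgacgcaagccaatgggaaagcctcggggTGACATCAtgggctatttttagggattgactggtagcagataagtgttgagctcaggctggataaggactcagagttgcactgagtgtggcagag

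The AP-1 element TGANTCA itself was found in 0 of the 11 windows, against 7.81% of all 32851 windows of this length in the table. The related element TGACNTCA was found in 1 window, that of Jun, as TGACATCA at bases 206 to 213 counted from the left end, against 8.83% of all windows. The short site TGACG was in 5 of the 11 windows, against 20.8% of all, with copies at bases 122 and 185 of the Fos window and 1 at base 137 of the second Jdp2 window. None of the TGACG matches overlapped the TGACNTCA match. The box TATAAA was in 2 windows (13.6% of all) and GGGCGG in 9 (35.7% of all). A match is a description of the letters, and binding was not measured here.

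Jdp2 showed the widest gap between the groups among the 10 genes. Its brightest probe set (1450350_a_at) read 698, 353 and 329 in mutant cells of assays 1, 2 and 3, against 1325, 2195 and 2295 in wild-type cells. All 3 mutant readings lay below all 3 wild-type readings, and the wild-type reading was 1.90, 6.22 and 6.98 times the mutant one in the 3 assays. The means were 460 ± 206 in mutant and 1938 ± 534 in wild-type cells (SD, n = 3 each). On the scale of log2(intensity + 16) the difference was -2.08 ± 0.37 (SE), with a 95% interval of -3.01 to -1.15, which corresponds to a level 4.23 times lower in mutant cells.

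Of 10363 genes above the filter, 9 had a more negative difference than Jdp2. By limma over all 22497 probe sets its unadjusted p was 0.00195, the tenth smallest, and the adjusted p was 0.99998, so Jdp2 did not pass. No probe set passed this test (0.00% called), and 97 genes that were lower and 21 that were higher in mutant cells had an unadjusted p under 0.05. With the replicate number as a block limma also called 0 probe sets (0.00% called), with 317 lower and 293 higher genes at an unadjusted p under 0.05. An exact permutation test of 3 arrays against 3, two-sided, gave Jdp2 p = 0.1, which is the smallest that this test allows. It took no account of the assays. In pooled RNA, fewer cells that express a gene and less of its RNA per cell cannot be told apart. The osteoclast marker sum given above was also lower on every mutant array than on any wild-type array, and its part in the Jdp2 result was not tested.

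**Figure D1:**
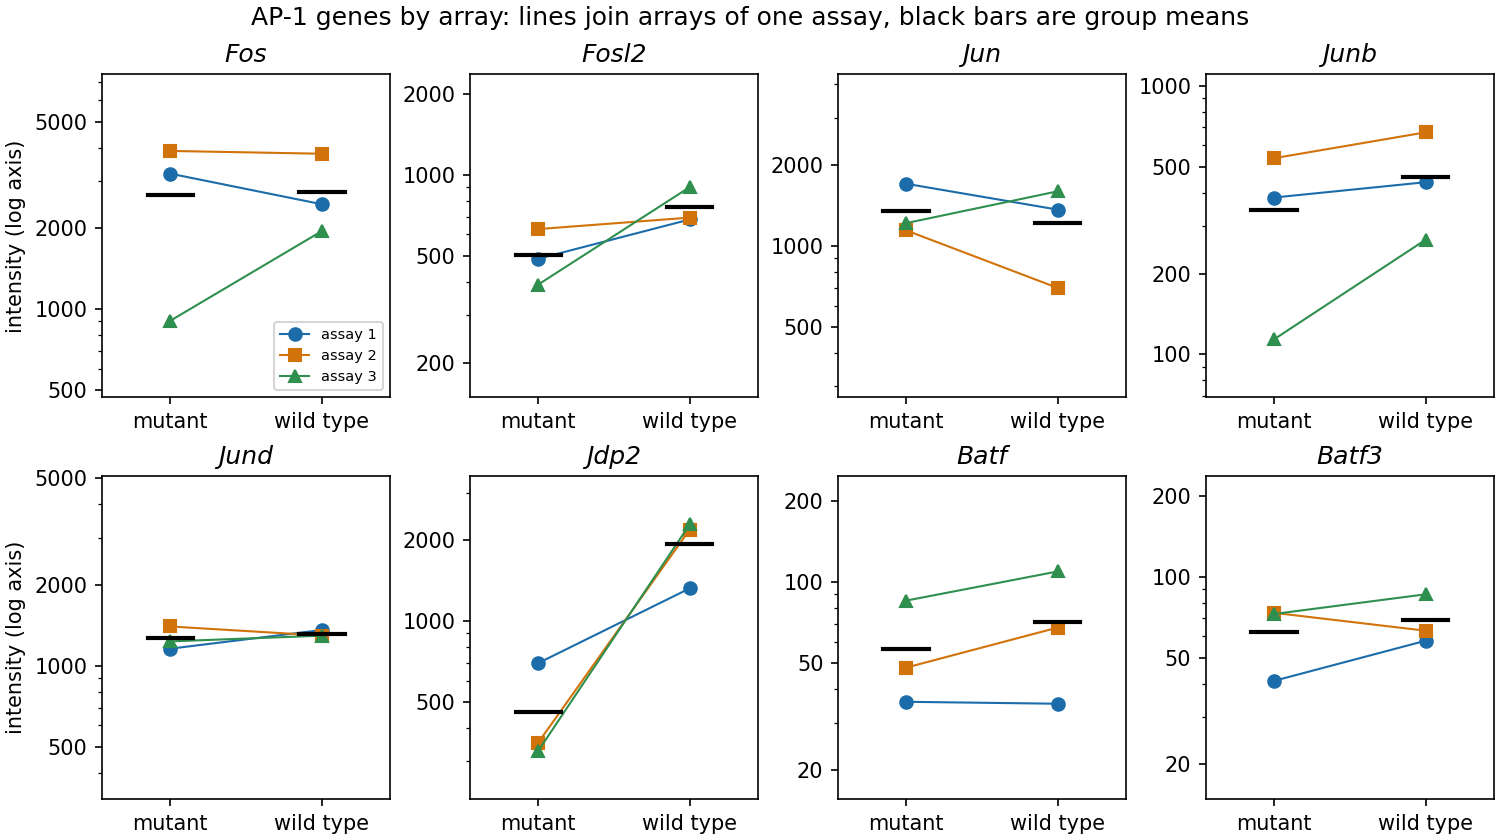
Intensity of the 8 AP-1 genes above the filter on each array, on a log axis that spans the same fold range in every panel. Mutant arrays stand left of wild-type arrays, coloured lines join the 2 arrays of an assay, and black bars are group means (n = 3). Jdp2 and Fosl2 are the panels in which the groups do not overlap, with Jdp2 at 329 to 698 in mutant and 1325 to 2295 in wild-type cells.

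The 6 values of Jdp2 varied with the group rather than the assay. The groups accounted for 86.0% of its sum of squares on the log2 scale and the assays for 0.276%. Over all genes above the filter the medians of these shares were 4.52% for the groups and 77.3% for the assays. A second Jdp2 probe set (1424972_at) read 3.71 to 4.02 on all 6 arrays, at the dim end, and adds no second measurement. The gap in log2 between Jdp2 and each of the other 7 genes above the filter was lower on every mutant array than on any wild-type array. The shifts ran from -2.29 against Jun to -1.48 against Fosl2. These 7 gaps share the same Jdp2 values and so are not separate results.

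Fosl2 encodes Fra-2, a Fos protein that is known in mice to limit the size of osteoclasts. It read 487, 629 and 390 in mutant cells of assays 1, 2 and 3, against 683, 694 and 901 in wild-type cells. The groups did not overlap, although mutant array 2 and wild-type array 1 were close. The wild-type reading was 1.40, 1.10 and 2.31 times the mutant one, so the gap was smallest in assay 2. The log2 difference was -0.60 ± 0.21 (SE; 95% interval -1.13 to -0.06), or 1.51 times lower in mutant cells, and it did not pass limma over all probe sets (unadjusted p = 0.0359, adjusted p = 0.99998). Without both arrays of assay 3 the difference was -0.31. The groups accounted for 62.5% of its sum of squares and the assays for 4.67%. The other probe set of Fosl2 (1422931_at) read 7.62 to 9.59 on all arrays, at the dim end.

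With Jdp2 and Fosl2, 2 of the 8 genes above the filter had lower readings in mutant cells without overlap, against 1.95% of all genes above the filter. None had higher readings without overlap, against 1.36% of all. Both were also the only members with an unadjusted p under 0.05 by limma, where 0.936% of all genes were lower and 0.203% higher. With the replicate number as a block Jdp2 was the only such member (unadjusted p = 0.00820, adjusted p = 0.859), where 3.06% of all genes were lower and 2.83% higher. The genes had been selected by family name with earlier results of these arrays known, Jdp2 among them, and so the counts describe these genes.

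Fos, the partner of Jun that osteoclast formation requires, separated by assay and not by group. It read 3199, 3886 and 906 in mutant cells of assays 1, 2 and 3, against 2460, 3794 and 1954 in wild-type cells. The lowest reading of each group was that of assay 3, and the 2 groups overlapped. Mutant cells read 1.30 times the wild-type cells in assay 1, 1.02 times in assay 2 and 0.463 times in assay 3. The mean log2 difference of -0.23 ± 0.62 (SE) had a 95% interval of -1.78 to 1.33. With the replicate number as a block the interval was -1.13 to 0.68, which includes a level 2-fold lower in mutant cells and no change, but not a level 2-fold higher. Without both arrays of assay 3 it was 0.21.

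Junb, a Jun protein that also pairs with Fos, varied across the arrays much as Fos did. It read 384, 538 and 114 in mutant cells, against 438, 671 and 267 in wild-type cells. Within each assay the mutant reading was the lower one, by log2 differences of -0.18, -0.31 and -1.13, but the assays spread so far that the groups overlapped. The mean difference was -0.54 ± 0.64 (SE; 95% interval -2.15 to 1.07; limma, adjusted p = 0.99998). A block on the replicate number gave an SE of 0.22 and an interval of -1.16 to 0.08 (limma, unadjusted p = 0.0727, adjusted p = 0.859). Without mutant array 3 the mean difference was 0.08. Among the 8 genes, Fos and Junb were the most alike pair: their log2 deviations from their own means differed by a root mean square of 0.20 over the 6 arrays. The assays accounted for 78.3% of the sum of squares of Fos and 80.9% of that of Junb. In assay 3, where both were lowest, the stromal marker sum was highest, and its part in their levels was not tested.

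**Figure D2:**
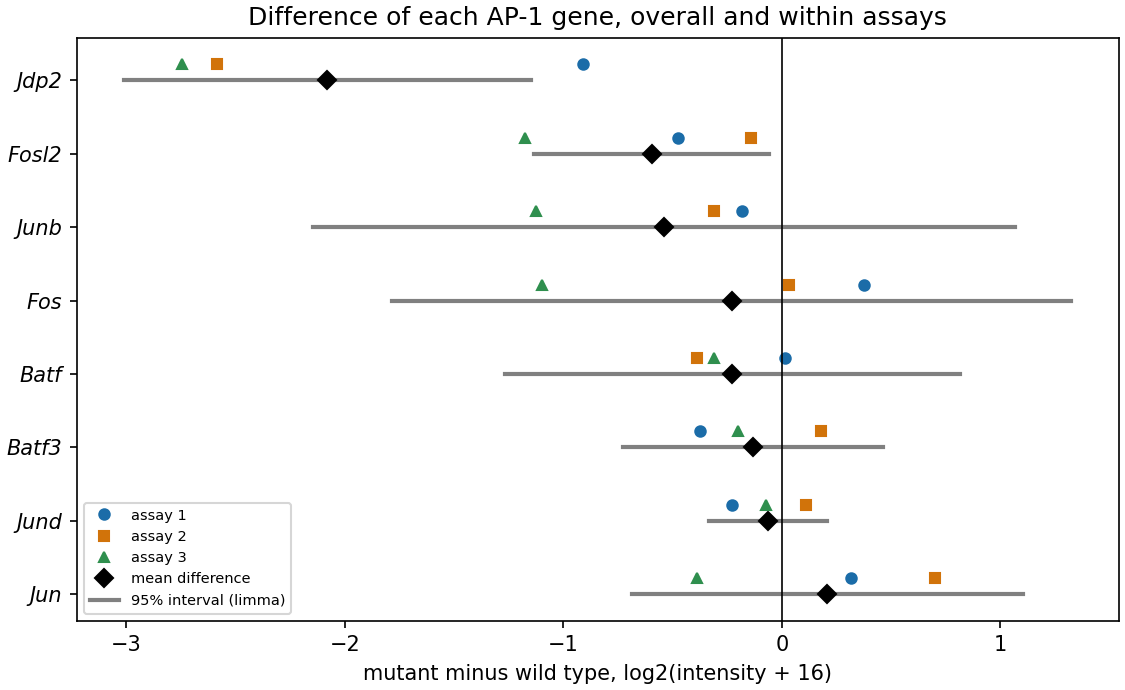
Mutant minus wild type on the scale of log2(intensity + 16) for the 8 AP-1 genes above the filter, ordered by their mean difference. Black diamonds are means with limma's 95% intervals as grey bars (n = 3 arrays per group), and coloured symbols above them are the differences within assays 1, 2 and 3. Only the intervals of Jdp2 (-3.01 to -1.15) and Fosl2 (-1.13 to -0.06) lie below 0, before adjustment for the number of probe sets.

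Jun, the central pairing partner of the family, was the 1 member with a higher mean in mutant cells. Its brightest probe set (1417409_at) read 1706, 1143 and 1217 in mutant cells, against 1366, 698 and 1599 in wild-type cells. The mutant reading was the higher one in assays 1 and 2 and the lower one in assay 3. The log2 difference was 0.21 ± 0.36 (SE, 95% interval -0.69 to 1.10, and -0.45 to 0.87 with the replicate number as a block). Its other probe set (1448694_at), also above the filter, read 438, 629 and 453 in mutant cells against 383, 291 and 605 in wild-type cells. It gave the same order in each assay, with a mean log2 difference of 0.28 ± 0.30 (SE). Neither passed limma (adjusted p = 0.99998 each).

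Jund, a Jun protein that is expressed in many resting cells, was the steadiest of the genes. It read 1160, 1403 and 1235 in mutant cells, against 1361, 1298 and 1297 in wild-type cells. The log2 difference was -0.06 ± 0.11 (SE), and its 95% interval of -0.33 to 0.21 was the narrowest among the 8 genes. A difference of 2-fold lies outside that interval. A second probe set of Jund (1440265_at) read 4.41 to 4.50 throughout, at the dim end.

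Batf, which pairs with Jun proteins and lacks the activation domains of Fos, differed between assays rather than groups. It read 35.8, 48.1 and 85.4 in mutant cells of assays 1, 2 and 3, against 35.3, 67.8 and 109.7 in wild-type cells. Readings were lowest in assay 1 and highest in assay 3 in both groups, and the assays accounted for 91.3% of the sum of squares. The log2 difference was -0.23 ± 0.41 (SE, 95% interval -1.27 to 0.81, and -0.54 to 0.09 with the replicate number as a block). Of the 6 T cell markers on the arrays only Cd4 lay above the filter. The others (Cd3e, Cd3g, Cd3d, Cd8a and Cd247) read at most 8.30 on every array, at the dim end. Cd4 read 5.46 and 29.2 on mutant arrays 2 and 3, the first at the dim end. It read 19.5 and 26.6 on wild-type arrays 2 and 3, and at most 4.98 in assay 1. Ighm, given above, was also lowest in assay 1 and highest in assay 3 in both groups. None of the other B cell markers on the arrays had that order in both groups. The part of cells that express Cd4 or Ighm in the Batf readings was not tested.

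Batf3, which a subset of conventional dendritic cells needs for its development, read 41.0, 73.4 and 72.7 in mutant cells, against 57.8, 63.0 and 86.1 in wild-type cells. The groups overlapped, and the mutant reading was the higher one in assay 2 only. The log2 difference was -0.13 ± 0.24 (SE, 95% interval -0.73 to 0.46, and -0.51 to 0.25 with the replicate number as a block). Of the 7 dendritic cell markers on the arrays 6 lay below the filter, among them Flt3, Zbtb46 and Xcr1, which read at most 8.47 on every array. Itgax, which macrophages also express, was the 1 above it.

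Fosb and Fosl1, both of the Fos family, were at the dim end on all 6 arrays. Fosb read 4.18 to 4.22 in mutant cells and 4.17 to 4.47 in wild-type cells. The brighter Fosl1 probe set (1417487_at) read 7.53 to 7.62 in mutant cells and 5.30 to 7.59 in wild-type cells, and the other (1417488_at) 4.83 to 4.94 on all arrays. They were not tested, and a change within this range would not have been detectable.

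**Figure D3:**
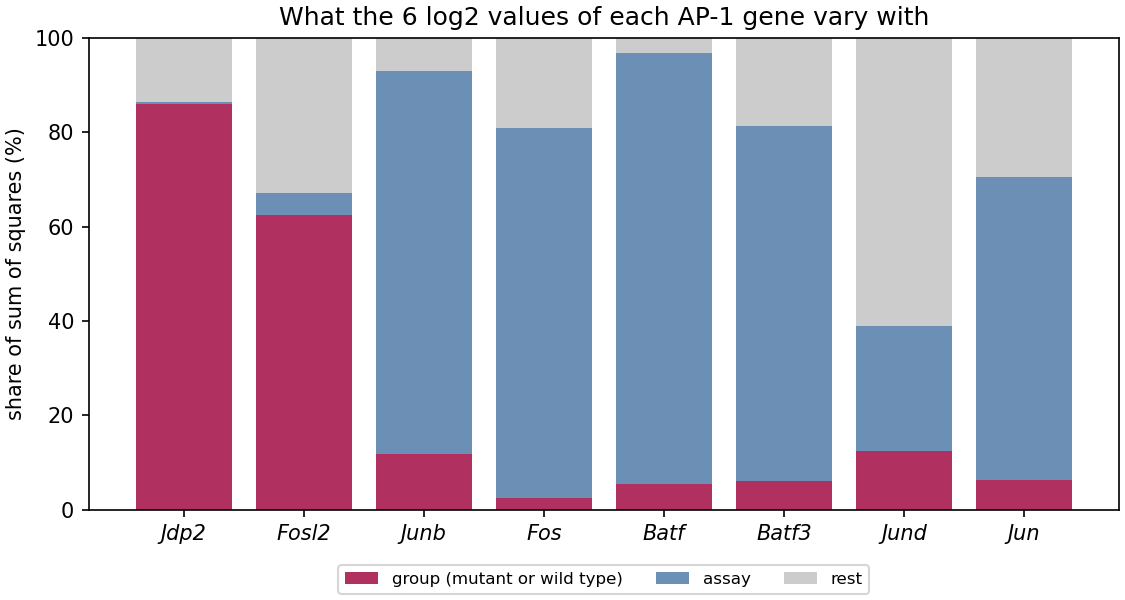
Share of the sum of squares of the 6 log2 values (percent) that lay between mutant and wild type, between the 3 assays and in the rest, for each AP-1 gene above the filter. The group share was 86.0% for Jdp2 and 62.5% for Fosl2, and the assay share was 64.2% to 91.3% for Fos, Jun, Junb, Batf and Batf3. For Jun this is the brightest probe set. Its other one above the filter (1448694_at, not shown) had an assay share of 16.6% and a rest of 68.4%.

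Across the 8 genes, mutant means were lower for 7 and higher for 1, where 46.8% of all genes above the filter were lower. The median log2 difference was -0.23, against 0.01 over all genes. By assay the medians of the 8 were -0.21, -0.05 and -0.74, so they lay lowest in assay 3. Jdp2, Fosl2 and Junb (3 of 8) were lower in every assay, against 12.0% of all genes, and 0 were higher in every assay, against 14.5% of all. Without both arrays of assay 3, Fos and Jun were higher in both remaining assays. Jdp2 was the 1 member at least 2-fold lower in the mean, against 0.666% of all genes, and also the 1 at least 4-fold lower, against 0.0965% of all.

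**Figure D4:**
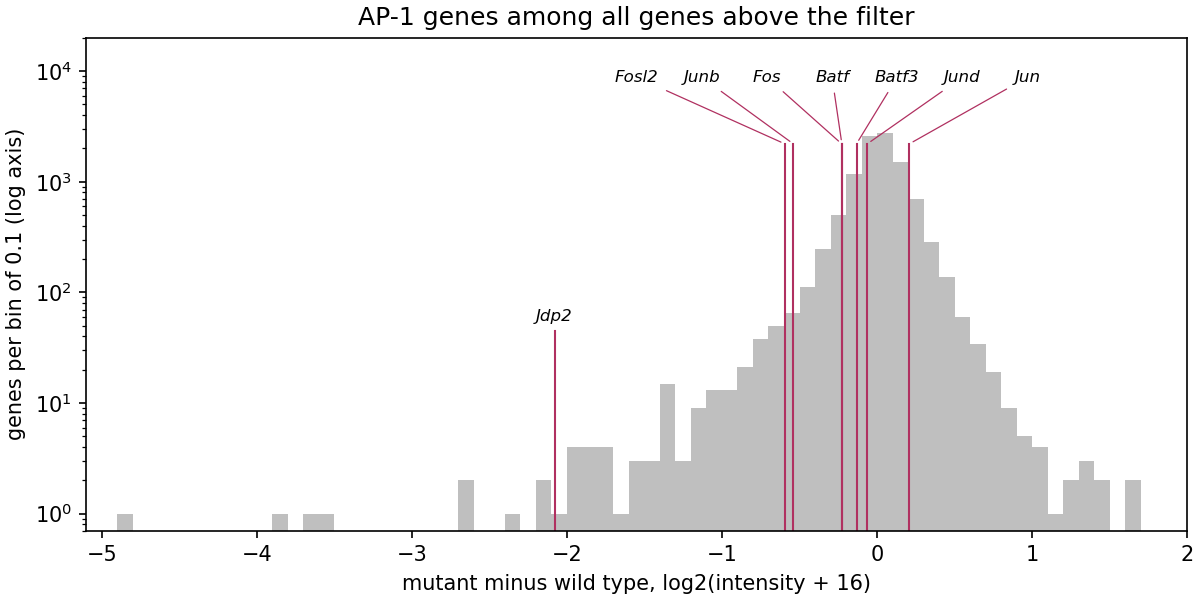
Histogram of the mutant minus wild-type difference on the scale of log2(intensity + 16) for the 10363 genes above the filter, in bins of 0.1 with a log count axis. Red lines mark the 8 AP-1 genes. Jdp2 lies at -2.08 in the sparse left tail, while the other 7 lie between -0.60 and 0.21.

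The genes that were most like Jdp2 over the 6 arrays were sought among all others above the filter by the root mean square gap between log2 deviations from the gene's own mean. The measure rests on 6 arrays that share 3 assays. The 5 closest were Vegfc (gap 0.25), Grk3 (0.29), Uchl1 (0.30), Cav1 (0.38) and Gpc1 (0.43), where the median gap over all genes was 1.16. Cav1, the coat protein of caveolae, read 1325, 503 and 358 in mutant cells of assays 1, 2 and 3, against 1636, 1942 and 2066 in wild-type cells. As with Jdp2, its gap between the groups was smallest in assay 1, which follows from its choice by likeness to Jdp2. Vegfc, a growth factor for lymphatic vessels, read 40.4, 11.4 and 10.3 in mutant cells, against 65.3, 119.6 and 219.2 in wild-type cells. Uchl1, a ubiquitin hydrolase, read 54.6, 5.84 and 11.8 in mutant cells, against 77.5, 119.8 and 105.8 in wild-type cells. Its mutant readings in assays 2 and 3 were near the dim end, as were those of Vegfc, and the size of such gaps depends on the pseudocount.

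For Fosl2 the 5 closest genes were Alg9 (gap 0.11), Gss (0.15), Gucd1 (0.16), Fut4 (0.17) and Gch1 (0.17), with a median of 0.44 over all genes. Gss, which makes glutathione, read 119, 120 and 88.0 in mutant cells, against 184, 188 and 231 in wild-type cells. Gch1, the first enzyme of tetrahydrobiopterin synthesis, read 356, 350 and 204 in mutant cells, against 434, 416 and 457 in wild-type cells. In both the widest gap was in assay 3, as in Fosl2, which follows from their choice by likeness to Fosl2.

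Other proteins with a basic leucine zipper, which can pair with AP-1 proteins or share their sites, differed little. Of 25 listed, 22 were above the filter, 15 with a lower and 7 with a higher mean in mutant cells, with log2 differences from -0.34 to 0.27 and a median of -0.08. By limma 0 passed and 0 had an unadjusted p under 0.05, where 0.936% of all genes were lower and 0.203% higher. Limma with the replicate number as a block gave 1 of the 22 such a p (Nfe2l1, lower, unadjusted p = 0.0357, adjusted p = 0.859), where 3.06% of all genes were lower. Batf2, the remaining gene of the Batf group, read 30.4, 27.1 and 26.6 in mutant cells, against 35.6, 31.1 and 50.04 in wild-type cells, without overlap. Atf6, a sensor of unfolded proteins, read 729, 961 and 696 in mutant cells, against 681, 682 and 663 in wild-type cells, also without overlap. These were the only 2 of the 22 without overlap, 1 lower and 1 higher, where 1.95% of all genes were lower and 1.36% higher without overlap. Atf3, a stress-induced factor that pairs with Jun proteins, had a log2 difference of 0.27 ± 0.24 (SE), and Nfe2l1 of -0.33 ± 0.42 (SE).

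Kinases and phosphatases that act upstream of AP-1 included no gene without overlap, where 1.95% of all genes were lower and 1.36% higher without overlap. Of 31 listed, 24 were above the filter, 14 lower and 10 higher in mutant cells, with a median log2 difference of -0.03. By limma 0 passed and 0 had an unadjusted p under 0.05, with or without the block. Of all genes, 0.936% were lower and 0.203% higher at that p, and 3.06% and 2.83% with the block. Mapk8 and Mapk9, the kinases of Jun, differed by -0.12 and -0.05. These 2 were named after their values were seen. Rps6ka3, a kinase that phosphorylates Fos, differed by 0.32 ± 0.22 (SE), and Map3k5 by 0.28 ± 0.23 (SE). Dusp5, a phosphatase of the ERK kinases, read 16.7, 22.1 and 16.6 in mutant cells, against 17.8, 22.4 and 82.6 in wild-type cells, so wild-type array 3 set its difference of -0.55 ± 0.43 (SE). Dusp10 differed by -0.24 ± 0.20 (SE), with 9.93, 9.48 and 6.07 in mutant cells and 21.8, 9.31 and 9.15 in wild-type cells, at or near the dim end.

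Among cofactors and regulators of AP-1, 11 of the 13 genes above the filter had a higher mean in mutant cells, with a median log2 difference of 0.12. By limma, with or without the block, 0 passed and 0 had an unadjusted p under 0.05. The shares of all genes were 0.936% lower and 0.203% higher, and 3.06% and 2.83% with the block. The median was -0.04 in assay 1, 0.31 in assay 2 and 0.15 in assay 3. Srf, which switches on the Fos gene after growth factor stimulation, read 97.7, 247 and 85.4 in mutant cells, against 91.8, 131 and 79.4 in wild-type cells. It was higher in every assay, but its log2 difference of 0.34 ± 0.41 (SE) lay within the spread between assays. Elk3, which joins Srf on DNA, differed by 0.30 ± 0.31 (SE), Mef2c by 0.30 ± 0.22 and the coactivator Crebbp by 0.16 ± 0.18.

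Other immediate early genes, which stimulated cells switch on together with Fos and Junb, had no member without overlap. Of all genes 1.95% were lower and 1.36% higher without overlap. Of 19 listed, 17 were above the filter, 10 lower and 7 higher in mutant cells, with a median log2 difference of -0.03. None (0) passed limma or had an unadjusted p under 0.05 there, with or without the block. At that p 0.936% of all genes were lower and 0.203% higher, and 3.06% and 2.83% with the block. Egr2, a zinc finger factor, read 174, 397 and 581 in mutant cells, against 341, 363 and 821 in wild-type cells, and differed by -0.43 ± 0.55 (SE). In both groups it was highest in assay 3, where Fos and Junb were lowest. Klf6 differed by 0.19 ± 0.24 (SE), Ier5 by -0.20 ± 0.27 and Nr4a2, which read 10.4 to 17.6 on all arrays, near the dim end, by 0.13 ± 0.12.

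Genes listed for AP-1 sites in osteoclasts or macrophages differed from gene to gene. Of 25 listed, 20 were above the filter, 9 lower and 11 higher in mutant cells, with a median log2 difference of 0.01. Over all probe sets 0 of them passed limma, and 5 lower and 0 higher genes had an unadjusted p under 0.05, against 0.936% and 0.203% of all genes. With the block there were 6 lower and 3 higher, against 3.06% and 2.83% of all. Acp5, Ctsk, Mmp9, Dcstamp, Calcr and Ocstamp (6 of 20) were lower in mutant cells without overlap, where 1.95% of all genes were. All 6 are osteoclast genes and belong to the 10 osteoclast markers summed above, so this count and that sum are not separate results. Nfatc1, also on the list, differed by 0.02, with -0.08, 0.06 and 0.07 in assays 1, 2 and 3. Calcr and Ocstamp read 6.38 to 6.59 and 4.47 to 4.64 in mutant cells, below the array medians. They passed the filter only through the wild-type arrays, so their lack of overlap follows from the filter. The counts at an unadjusted p under 0.05 include Calcr, and those with the block also Ocstamp. Acp5, an acid phosphatase, differed by -3.54 ± 0.59 (SE) on the log2 scale, Mmp9, a matrix protease, by -4.88 ± 0.89, Ctsk, a collagen-degrading protease, by -3.82 ± 0.81 and Dcstamp, a fusion protein, by -1.97 ± 0.40. The mutant readings of Dcstamp, 12.7 to 15.5, were near the dim end, and its difference depends on the pseudocount. In assays 1, 2 and 3 Acp5 differed by -3.10, -3.997 and -3.51 and Jdp2 by -0.91, -2.58 and -2.75. Timp1, Mmp12 and Ccl2 (3 of 20) were higher in every assay, by mean log2 differences of 0.57, 0.42 and 0.56, a share near the 14.5% of all genes that were higher in every assay. They were also the 3 higher genes counted with the block (limma, unadjusted p = 0.0455, 0.0399 and 0.00555), and did not pass after adjustment. Nfatc1, Timp1, Mmp12, Ccl2, Calcr and Ocstamp were named after their values were seen. Earlier results of these arrays were known when the list was made.

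**Figure D5:**
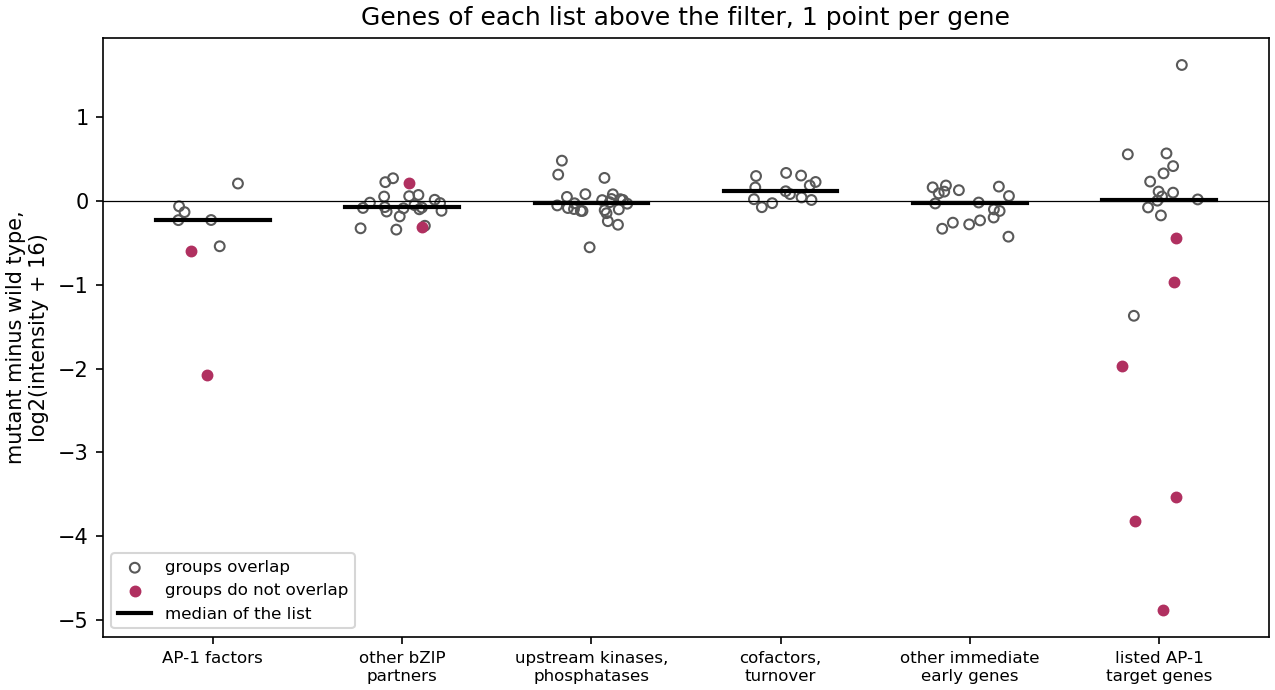
Mutant minus wild type on the scale of log2(intensity + 16), 1 point per gene above the filter, for the AP-1 factors and the 5 lists of related genes. Filled points are genes whose mutant and wild-type readings do not overlap (n = 3 arrays per group), and black bars are list medians. Filled points below -1 occur among the AP-1 factors (Jdp2) and the listed AP-1 target genes (Dcstamp, Acp5, Ctsk and Mmp9).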

How the data were processed

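RNA of 6 macrophage cultures was measured on Affymetrix arrays. Per the submitters' processing notes, the deposited intensities were made with GCOS and GCRMA, whose versions and roles are not given in the sources used here. GCRMA models background and normalizes between arrays, which pulls dim probe sets towards a floor. Groups and replicate numbers came from the sample titles.

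After 64 control probe sets were left out, 45037 remained. A probe set was kept if above the median (percentile 50) of its array on at least 3 of 6 arrays, which left 22497. Intensities were taken as log2(value + 16), so that differences of dim genes are understated. Mutant minus wild type was tested two-sided with limma 3.58.1 in R 4.3.3 without a block, adjusted by Benjamini-Hochberg over all kept probe sets, with 0.05 as the threshold. The limma step was tested on simulated data. The members, lists and tests were chosen with earlier results of these data known. Genes named were all members, up to 4 of each list with the smallest p, and the 5 most like each of the 2 members with the smallest p. Any other is marked as named after its values were seen.

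Same numbers stand for the same assay per the labels' protocols, and were therefore treated as pairs. Deviations from the group mean correlated between same-numbered arrays at 0.797, 0.671 and 0.845 across probe sets (other pairs -0.618 to -0.0138). Such deviations cancel out within a group, so positive values for same numbers push the other pairs to negative values. That contrast is therefore partly built in. The labels do not say whether assays used separate mice. The alternatives were pseudocounts of 1 and 64, no filter, a filter at percentile 70, quantile normalization, the replicate number as a fixed or random block, probe sets averaged, and arrays or assay 3 left out. Probe sequences and protein sequences were not used here.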

Additional observations from a re-analysis of the deposited data

How the results depend on the processing

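The limma test called 0 probe sets under every alternative except the random block, where it called 1, which is not an AP-1 gene. With a fixed replicate block it called 0, with a smallest adjusted p of 0.0792, and the block changed no call of an AP-1 gene. Leaving out each array in turn gave 0 to 0 calls. Jdp2 stayed lower in all 15 alternatives, by log2 differences of -2.41 to -1.75 (-1.75 without assay 3), and Fosl2 in 15, by -0.77 to -0.31. The unadjusted p of Fosl2 was 0.0605 with the fixed block. Jund kept its direction in 15, between -0.14 and -0.00. The count of members lower in every assay, 3 of 8, was 3 to 5 when 1 array was left out, with 5 without mutant array 2 or wild-type array 2, and that of members higher in every assay, 0, was 0 to 2, with 2 without mutant array 3, wild-type array 3 or all of assay 3. With an array left out, 2 assays remained to compare. Without both arrays of assay 3 the difference of Fos turned to 0.21. When 1 array was left out, Fos ranged from -0.62 to 0.42 and turned without mutant array 3 or wild-type array 2. Jun ranged from -0.15 (without wild-type array 2, where it turned) to 0.44, and Junb from -0.97 to 0.080 (without mutant array 3). Batf ranged from -0.56 to 0.087 (without wild-type array 3), and Batf3 from -0.24 to 0.083, turning without mutant array 1 or wild-type array 3. Fewer arrays remained in each of these, and the cause was not tested further. At the filter of percentile 70, Batf and Batf3 were no longer tested. The number of arrays and the distance of Fosb, Fosl1, Batf and Batf3 from the dim end limit what can be seen.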
